A study of Mus musculus with 5 samples.

Results

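Fc receptors bind the constant part of antibodies on the surface of white blood cells, and a small set of adaptor proteins carries the signal inside. The 10 genes described here are the IgG receptors Fcgr1, Fcgr2b, Fcgr3 and Fcgr4, the adaptors Fcer1g and Tyrobp, the receptors Trem2, Pirb and Clec7a, and the kinase Syk. They were chosen by gene symbol, with absent entries taken as 0 counts, from 14161 genes listed in any library. All 10 were found, 9 of them in all 5 libraries. RNA came from cultured mouse cells labelled bone mesenchymal stem cells, the adherent stromal cells of marrow, isolated from femurs of C57BL/6 mice aged 6 to 8 weeks, grown in α-MEM with 12% FBS and used at passages 1 to 3. There were 3 libraries of Bmal1-knockout (Bmal1-/-) cells and 2 of wild type cells. BMAL1, encoded by Arntl, is the partner of CLOCK in the transcription factor at the heart of the circadian clock, and the design sets cells without it against cells with it. The labels do not say how Bmal1 was deleted, or whether libraries of a group came from separate animals or cultures, so p-values measure the spread between these libraries, which may be technical.

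In the activating branch of this system, the antibody receptors FcγRI, FcγRIII and FcγRIV have no activation motif of their own and pair with the Fc receptor γ chain (Fcer1g), while TREM2 pairs with DAP12 (Tyrobp). Both adaptors carry an immunoreceptor tyrosine-based activation motif (ITAM). Src family kinases phosphorylate the motif and SYK then docks on it. The inhibitory receptors FcγRIIB and PIR-B carry the opposing motif, the ITIM, which recruits phosphatases. In marrow these genes are known chiefly from macrophages, monocytes, granulocytes and osteoclasts, whose formation depends on Tyrobp and Fcer1g.

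Pirb and Syk were lower in the knockout libraries, Pirb 0.397-fold and Syk 0.533-fold relative to wild type, and no gene of the set was higher. Of the 10 genes, 8 had enough counts to be tested, 2 passed as lower and 6 did not pass. Of all 3710 tested genes, 8.14% passed as lower and 8.19% as higher (edgeR quasi-likelihood test, Benjamini-Hochberg adjusted p under 0.05). At an unadjusted p under 0.05, 5 of the 8 were lower, where the same held for 14.3% of all tested genes, and 0 were higher. DESeq2 called 0 of the 10 lower and 0 higher, and voom called 2 lower, Pirb and Syk, and 0 higher. Limma on FPKM also called 2 lower and 0 higher, but these were Pirb and Tyrobp, and Syk did not pass there. The 8 log2 fold changes lay between -1.33 and -0.17 with a median of -0.75, beside a median of 0.01 over all tested genes. All 8 were below 0, as were 49.5% of all tested genes. The knockout values lay wholly below the wild type values for 6 of the 8, against 21.6% of all tested genes. Pirb reached 10 counts, the level the filter on low counts asks for, in 1 knockout library and in both wild type libraries. It could thus be tested only because it was higher in wild type. The 10 genes were also chosen with earlier results of these data known, so these shares are a description.

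The libraries held 211623 to 281990 expected counts, an estimate that shares a read between the genes it fits. Levels are in CPM, counts scaled to a common library size, from rounded counts and the scaled total of tested genes. A count of 0 allows a level of up to 12.1 to 15.9 CPM per library (3 counts, counting error only). Of 12 genes of the clock, 4 were tested and 0 passed, with 0 at an unadjusted p under 0.05 in edgeR. The lowest p values were those of Dbp (-0.66) and Clock (-0.35). The other tested clock genes, named after their values were seen, were Nr1d1 (0.20) and Nr1d2 (-0.17), both with overlapping groups. Arntl had 4, 1 and 2 counts in knockout 1 to 3, against 5 and 0 in wild type 1 and 2, so at this depth it did not check the labels.

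**Figure D1:**
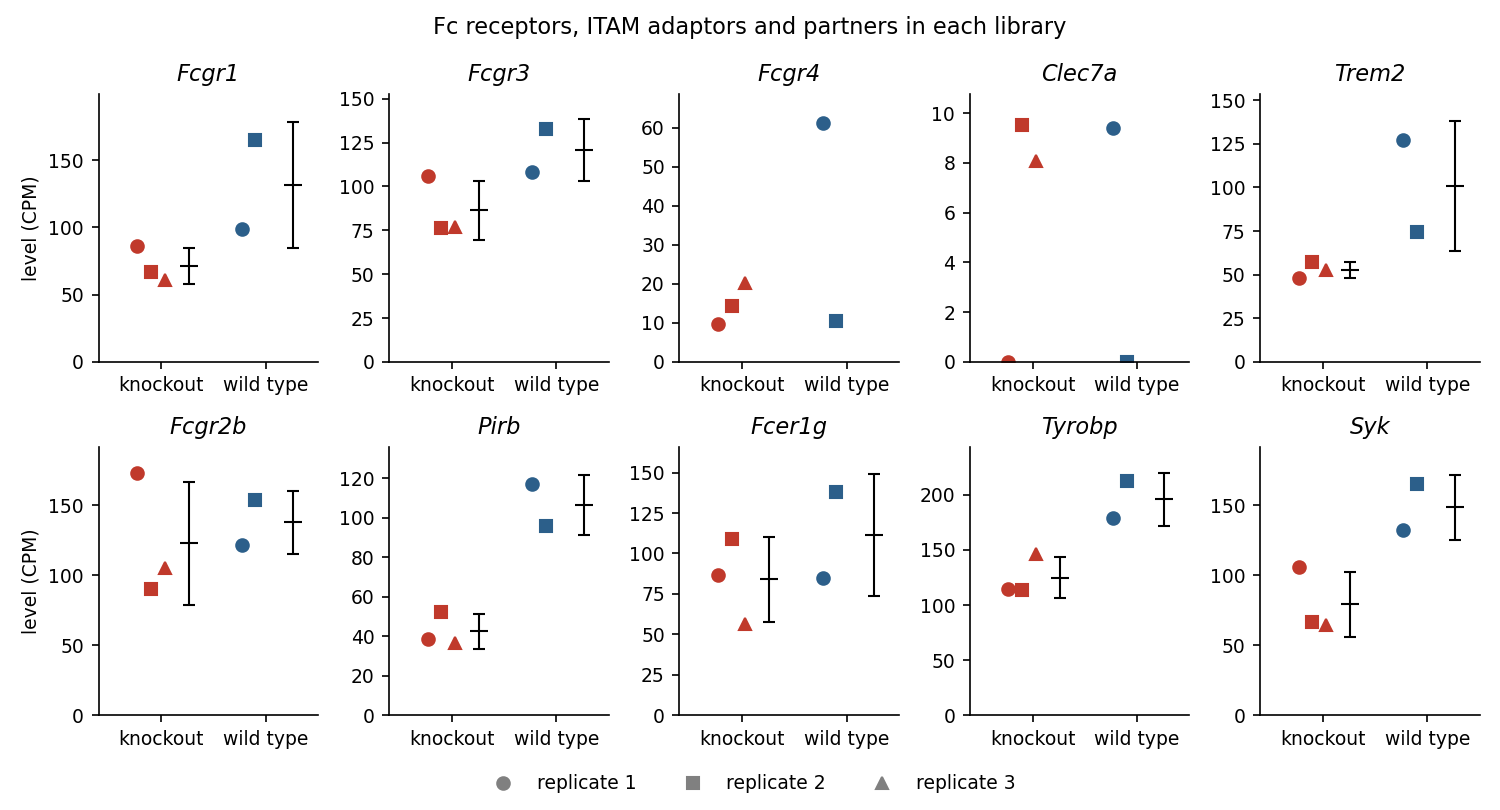
Level of each of the 10 genes in each library, in CPM on a linear axis that starts at 0 and differs between panels. Red symbols are the knockout libraries and blue symbols the wild type libraries, with mean and SD in black for the 8 tested genes. Pirb, Syk, Tyrobp, Trem2, Fcgr1 and Fcgr3 show knockout points wholly below the wild type points.

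Among the activating IgG receptors, Fcgr1 (Entrez gene 14129, chromosome 3, 96282909 to 96293969, mm10) encodes FcγRI, the high-affinity receptor. It had 18, 14 and 15 counts in knockout 1 to 3, against 21 and 31 in wild type 1 and 2, or 86.5, 66.6 and 60.7 CPM in knockout against 98.7 and 165 CPM in wild type. Every knockout library was below both wild type libraries, with wild type 2 well above wild type 1. The log2 fold change was -0.88 (SE 0.34; edgeR adjusted p = 0.0613), so it did not pass, and its p without adjustment was 0.0109 in edgeR. Leaving out wild type 1 brought a call (-1.23, edgeR adjusted p = 0.0456) and leaving out wild type 2 moved it to -0.48.

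Fcgr3 (Entrez gene 14131, chromosome 1, 171051169 to 171065915) encodes FcγRIII, the low-affinity activating receptor. Its expected counts were 21.87, 16.01 and 18.84 in knockout 1 to 3, against 23.23 and 25.17 in wild type 1 and 2. The groups did not overlap in CPM, but knockout 1 with 106 CPM stood close to wild type 1 with 108 CPM. The log2 fold change was -0.48 (SE 0.34; edgeR adjusted p = 0.363). Fcgr4 (Entrez gene 246256, chromosome 1, 171018926 to 171029761), the receptor FcγRIV for IgG2 subclasses, was too low to test. It had 2, 3 and 5 counts in knockout 1 to 3, against 13 and 2 in wild type 1 and 2. The wild type sum thus came mostly from wild type 1, and the other 4 libraries lay within a few counts of each other. The ratio of summed counts, knockout over wild type, was 0.402 with an exact 95% interval for Poisson counts of 0.161 to 0.956, which covers counting error only, and 1.41 (0.301 to 13.3) without wild type 1.

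The windows around the starts of these 3 receptors, 250 bases before to 50 after the start (RefSeq, GRCm38.p6, the assembly of mm10), each hold GAGGAA, the core of the site known for PU.1, the factor of myeloid cells encoded by Spi1. They are shown as the activating IgG receptors, in all of which the match lies within the last 60 bases before the start. That of Trem2, not shown, begins 40 bases before its start. Capitals mark GAGGAA or its reverse complement TTCCTC.
Fcgr1, chr3:96293920-96294219, minus strand: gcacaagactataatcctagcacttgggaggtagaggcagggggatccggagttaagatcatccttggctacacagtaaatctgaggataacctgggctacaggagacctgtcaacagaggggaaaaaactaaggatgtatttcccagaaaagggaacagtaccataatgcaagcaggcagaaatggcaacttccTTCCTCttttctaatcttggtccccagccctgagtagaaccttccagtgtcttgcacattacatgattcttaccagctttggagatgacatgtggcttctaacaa
Fcgr3, chr1:171059354-171059653, minus strand: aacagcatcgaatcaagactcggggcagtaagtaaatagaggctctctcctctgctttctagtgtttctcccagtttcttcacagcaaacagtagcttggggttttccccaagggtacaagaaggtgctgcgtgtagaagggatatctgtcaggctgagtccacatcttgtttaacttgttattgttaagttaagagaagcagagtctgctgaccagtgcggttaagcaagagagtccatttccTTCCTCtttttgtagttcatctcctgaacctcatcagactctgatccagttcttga
Fcgr4, chr1:171018676-171018975, plus strand: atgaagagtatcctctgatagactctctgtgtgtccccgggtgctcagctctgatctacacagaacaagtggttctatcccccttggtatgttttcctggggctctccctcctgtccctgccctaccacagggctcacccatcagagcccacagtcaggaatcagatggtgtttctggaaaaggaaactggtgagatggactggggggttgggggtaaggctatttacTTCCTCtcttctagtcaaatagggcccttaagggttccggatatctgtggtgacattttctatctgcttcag
The first base of the match lies 55 bases before the start of Fcgr1, 6 before the shown start of Fcgr3 and 22 before that of Fcgr4. The shown start of Fcgr3 lies inside the span given for the gene. At the other annotated start of Fcgr3 the match begins 15 bases before it. In all 3 the match reads TTCCTC on the gene's own strand.

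The inhibitory receptor Fcgr2b (Entrez gene 14130, chromosome 1, 170960558 to 170976071) encodes FcγRIIB, whose ITIM restrains the activating receptors. Its expected counts were 36.13, 18.99 and 26.16 in knockout 1 to 3, against 25.77 and 28.83 in wild type 1 and 2. Knockout 1 held the highest value of all 5 and knockout 2 the lowest, so the groups overlapped. The log2 fold change was -0.17 (SE 0.30; edgeR adjusted p = 0.768) and ranged from -0.47 to 0.00 with a library left out. Fcgr2b and Fcgr3 lie near each other and are alike in their extracellular part, and their counts were not whole in any library. Their sums were whole, at 58, 35 and 45 in knockout 1 to 3, against 49 and 54 in wild type 1 and 2, so reads were shared out between this pair. Summed, the pair had 209 ± 60.8 CPM (SD, n = 3) in the knockout libraries and 259 ± 40.2 CPM (n = 2) in the wild type libraries, with overlapping groups. In Fcgr2b, 155 exon bases lie opposite exons of Gm38204 on the other strand.

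Per unit of transcript length (FPKM, fragments scaled to length and depth), the 3 activating receptors together were at 93.2, 69.9 and 70.7 in knockout 1 to 3, against 129 and 133 in wild type 1 and 2. Their ratio to Fcgr2b in FPKM was 0.984, 1.48 and 1.31 in knockout 1 to 3, against 2.02 and 1.59 in wild type 1 and 2. Every knockout ratio lay below both wild type ratios, by a narrow margin between knockout 2 and wild type 2. The mean ratio was 1.26 ± 0.252 in knockout (SD, n = 3) against 1.81 ± 0.304 in wild type (n = 2). Without Fcgr4 the ratios were 0.919, 1.3 and 1.09 in knockout 1 to 3, against 1.42 and 1.51 in wild type 1 and 2. These ratios are a description with no test, and the sharing of reads between Fcgr2b and Fcgr3 enters both of their parts.

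**Figure D2:**
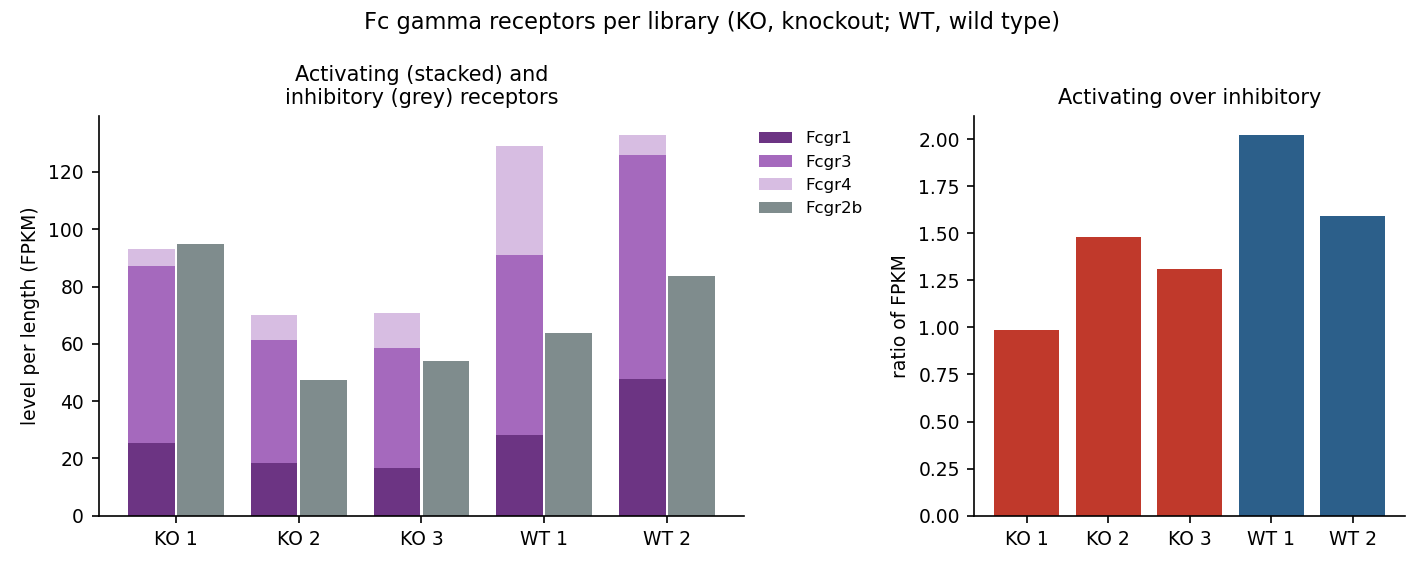
Left, FPKM of the activating IgG receptors Fcgr1, Fcgr3 and Fcgr4 (stacked, purple) and of the inhibitory Fcgr2b (grey) in each library. Right, the ratio of both bars, which was 0.984 to 1.48 in the knockout libraries (red) and 1.59 to 2.02 in the wild type libraries (blue).

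Pirb (Entrez gene 18733, chromosome 7, 3712505 to 3720382) encodes paired immunoglobulin-like receptor B, an ITIM receptor for MHC class I that restrains osteoclast and macrophage activation. It had 8.07, 10.51 and 9.44 expected counts in knockout 1 to 3, against 24.75 and 18.46 in wild type 1 and 2. The knockout libraries were close together and all lay below the wild type libraries, at 42.4 ± 8.64 CPM in knockout (SD, n = 3) against 107 ± 15.4 CPM in wild type (n = 2). The log2 fold change was -1.33 (SE 0.39; edgeR adjusted p = 0.00752). The call was lost without wild type 1 (-1.19, edgeR adjusted p = 0.156) and with DESeq2 (-1.34, adjusted p = 0.0944), and over all 16 alternatives the adjusted p ranged from 0.00776 to 0.156.

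PIR-B has near-identical activating relatives, the PIR-A receptors, which lack an ITIM and signal through Fcer1g, and the expected counts of Pirb were up to 0.49 away from whole. Summed with the 5 listed Pira genes (Pira1, Pira2, Pira4, Pira6 and Pira11), the counts lay within 0.01 of whole numbers, at 33.01, 31 and 30.99 in knockout 1 to 3, against 62 and 52.99 in wild type 1 and 2. The whole group of Pir genes was therefore lower in every knockout library, whichever copy a read was given to. The ratio of summed counts was 0.498, with an interval of 0.375 to 0.659 made the same way. The Pira genes without Pirb had 100 ± 18.1 CPM (SD, n = 3) in the knockout libraries and 177 ± 4.86 CPM (n = 2) in the wild type libraries. Pira1, named after its values were seen, had a log2 fold change of -0.96 (edgeR adjusted p = 0.0675) and did not pass. How much of the difference belongs to the inhibitory and how much to the activating copies cannot be told apart.

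The window at the start of Pirb is shown because it held more matches to GAGGAA than that of any other gene of the set, with the same marking by capitals.
Pirb, chr7:3720333-3720632, minus strand: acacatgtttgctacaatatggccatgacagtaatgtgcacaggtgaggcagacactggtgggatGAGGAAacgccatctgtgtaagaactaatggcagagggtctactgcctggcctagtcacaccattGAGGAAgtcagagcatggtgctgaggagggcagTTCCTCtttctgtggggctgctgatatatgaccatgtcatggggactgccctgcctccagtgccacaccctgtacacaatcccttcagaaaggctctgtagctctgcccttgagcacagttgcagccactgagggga
Its 3 matches begin 185, 120 and 87 bases before the start.

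Trem2 (Entrez gene 83433, chromosome 17, 48346401 to 48352276), the lipid-sensing receptor of macrophages, microglia and osteoclast precursors, had 10, 12 and 13 counts in knockout 1 to 3, against 27 and 14 in wild type 1 and 2. Knockout 3 and wild type 2 differed by 1 count, and wild type 1 stood apart, but the CPM values did not overlap. In the fit the log2 fold change was -0.94 (SE 0.38; edgeR adjusted p = 0.0705), and -0.51 without wild type 1. Clec7a (Entrez gene 56644, chromosome 6, 129461591 to 129472785), which encodes dectin-1, the receptor for fungal β-glucan that needs no adaptor, had 0, 2 and 2 counts in knockout 1 to 3, against 2 and 0 in wild type 1 and 2. All 5 values lie below the limit that a count of 0 allows, so no difference was detectable at this depth and no fold is given.

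The adaptors were the highest of the set per unit of length. Tyrobp (Entrez gene 22177, chromosome 7, 30413782 to 30417582), which encodes DAP12, had 24, 24 and 36 counts in knockout 1 to 3, against 38 and 40 in wild type 1 and 2. The groups did not overlap, with 125 ± 17.9 CPM in knockout (SD, n = 3) against 196 ± 24.1 CPM in wild type (n = 2). Fitted, the log2 fold change was -0.63 (SE 0.27; edgeR adjusted p = 0.104), so it did not pass, whereas limma on log2(FPKM + 1) called it lower (-0.68, adjusted p = 0.0263). Fcer1g (Entrez gene 14127, chromosome 1, 171229572 to 171234349), the γ chain shared by the activating IgG receptors and the IgE receptor, had 18, 23 and 14 counts in knockout 1 to 3, against 18 and 26 in wild type 1 and 2. Here the groups overlapped, since knockout 1 and wild type 1 held the same count. Its log2 fold change was -0.41 (SE 0.35; edgeR adjusted p = 0.479), and -0.03 without wild type 2.

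Syk (Entrez gene 20963, chromosome 13, 52582610 to 52648792) encodes the tyrosine kinase that docks on phosphorylated ITAMs and passes the signal of all these activating receptors on. It had 22, 14 and 16 counts in knockout 1 to 3, against 28 and 31 in wild type 1 and 2. The levels were 79 ± 23.1 CPM in knockout (SD, n = 3) against 148 ± 23.5 CPM in wild type (n = 2), and the groups did not overlap. Knockout over wild type, its log2 fold change was -0.91 (SE 0.33; edgeR adjusted p = 0.0375). This call rested on the setting: it was lost with 10 of 16 alternatives, with log2 fold changes from -0.75 to -1.15 over all 16. Among them were the fits that omitted knockout 2 (-0.80), knockout 3 (-0.78), wild type 1 (-1.09) and wild type 2 (-0.75) in turn, and DESeq2 (-0.92, adjusted p = 0.186).

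Of the starts annotated for Syk, the downstream one holds a match 9 bases before it, and is shown beside the receptors above for that reason.
Syk, chr13:52596632-52596931, plus strand: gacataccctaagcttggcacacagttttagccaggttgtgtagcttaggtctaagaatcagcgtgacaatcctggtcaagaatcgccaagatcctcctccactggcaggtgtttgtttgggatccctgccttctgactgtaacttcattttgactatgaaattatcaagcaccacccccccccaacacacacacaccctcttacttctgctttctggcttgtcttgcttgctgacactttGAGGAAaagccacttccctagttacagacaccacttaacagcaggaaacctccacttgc
Windows were matched by gene identifier for 9 of the 10 genes, 12 windows in all, and 9 of these windows in 7 genes held GAGGAA on either strand. The windows of Fcgr2b and Fcer1g and that at the upstream start of Syk held none. Of 32851 such windows of mouse genes, 28.3% held it. The E-box CACGTG, bound by BMAL1 with CLOCK, was in 0 of the 12 windows and in 7.15% of all windows. The motifs share no overlap with each other, but the 2 windows of Fcgr3, and likewise those of Clec7a, overlap. A match is a stretch of letters and not a measured site, and a missing match covers these 300 bases only.

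**Figure D3:**
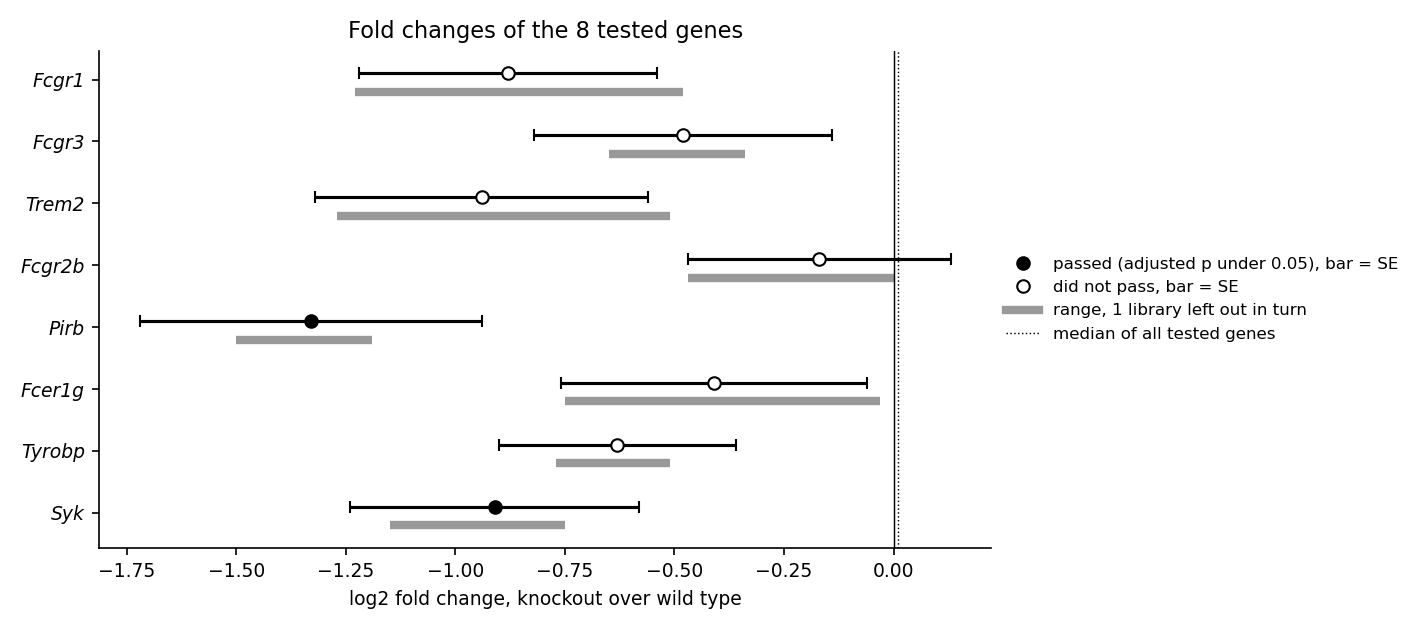
Log2 fold change, knockout over wild type, of the 8 tested genes with its SE (black), and the range when each library was left out in turn (grey bars). Filled points, Pirb at -1.33 and Syk at -0.91, passed; every point lies left of the dotted median of all tested genes at 0.01.

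In FPKM, which allows levels of different genes to be set side by side, the order was nearly the same in both groups. In the knockout libraries the means were 190 for Tyrobp, 106 for Fcer1g, 65.3 for Fcgr2b, 48.8 for Fcgr3, 37.2 for Trem2, 20.1 for Fcgr1, 11.3 for Pirb, 10.7 for Syk, 9.02 for Fcgr4 and 1.98 for Clec7a. In the wild type libraries they were 306 for Tyrobp, 144 for Fcer1g, 73.8 for Trem2, 73.6 for Fcgr2b, 70.5 for Fcgr3, 38 for Fcgr1, 29.2 for Pirb, 22.6 for Fcgr4, 20.6 for Syk and 1.64 for Clec7a. Tyrobp stood above Fcer1g in every library. The ranges of neighbours overlapped for Fcer1g and Fcgr2b, Fcgr2b and Fcgr3, Pirb and Syk, and Syk and Fcgr4 in the knockout libraries. In the wild type libraries they overlapped for Trem2 and Fcgr2b, Fcgr2b and Fcgr3, Fcgr1 and Pirb, Pirb and Fcgr4, and Fcgr4 and Syk. Of the knockout libraries, knockout 3 had the lowest Fcer1g and the highest Tyrobp, at 14 and 36 counts, a description with no test. Tyrobp had 24 counts in both knockout 1 and knockout 2. The FPKM ratio of Fcer1g to Tyrobp was 0.618, 0.789 and 0.32 in knockout 1 to 3 and 0.39 and 0.535 in the wild type libraries, with overlapping groups. Fcgr2b, Fcgr4, Fcgr3 and Fcer1g lie within 274 kb of chromosome 1 (170960558 to 171234349), and of these Fcgr4 was not tested and the other 3 did not pass.

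Macrophage markers were abundant in these cultures, and those that passed differed between the groups in the same direction as the tested genes of the set. All 20 markers were listed, and of 19 tested 12 fell, 0 rose and 7 did not pass (median log2 fold change -0.63). Their sum was 12587, 11309 and 11774 CPM in knockout 1 to 3, against 19145 and 18432 CPM in wild type 1 and 2. The marker Cx3cr1 was at 0 in wild type 2 and at 1 to 3 counts elsewhere. Among the 7 that did not pass, Mrc1 went the other way (0.18) with overlapping groups. Aif1 (-0.32) and C1qc (-0.31), like Mrc1 named after their values were seen, also had overlapping groups. The genes with the smallest adjusted p were Mpeg1, a pore-forming protein of phagocytes (-0.98, edgeR adjusted p = 1.88e-12), Lyz2, lysozyme (-0.67), and Ctss, a lysosomal protease (-0.86). Spi1, the gene of PU.1, was chosen after its values were seen. It had 10, 5 and 9 counts in knockout 1 to 3, against 23 and 19 in wild type 1 and 2. Its log2 fold change was -1.52 (SE 0.41, edgeR adjusted p = 0.00273), a call that did not hold without wild type 1 (-1.49). Of the knockout libraries only knockout 1 reached the minimum count of 10, so Spi1 could be tested only because it was higher in wild type. Csf1r, the receptor for the macrophage growth factor M-CSF, also chosen after its values were seen, was at 266 ± 49.7 CPM in knockout (SD, n = 3) and 447 ± 14.3 CPM in wild type (n = 2). It fell (-0.76, edgeR adjusted p = 0.00111), a call that ended once wild type 2 was omitted (-0.73, 0.0557) or with limma on log2(FPKM + 1) (-0.79, 0.0654). With wild type 1 or wild type 2 left out, 6 of the macrophage markers fell in each case, and 5 fell with DESeq2.

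The 10 genes summed to 769, 656 and 627 CPM in knockout 1 to 3, against 1038 and 1148 CPM in wild type 1 and 2, without overlap. Set against the macrophage markers of the same library, this sum was 6.11%, 5.8% and 5.33% in knockout 1 to 3, against 5.42% and 6.23% in wild type 1 and 2. These shares overlapped, and their means were 5.75% ± 0.393 in knockout (SD, n = 3) and 5.83% ± 0.573 in wild type (n = 2). On that scale Tyrobp was at 0.916%, 1.01% and 1.24% in knockout 1 to 3, against 0.933% and 1.15% in wild type 1 and 2. Syk was at 0.84%, 0.588% and 0.55% in knockout against 0.687% and 0.894% in wild type, so its groups overlapped as well. Pirb was at 0.305%, 0.462% and 0.309% in the knockout libraries against 0.613% and 0.519% in the wild type libraries. It was the 1 gene of the 10 whose groups stayed apart, a description with no test. Its reads were shared with the Pira genes, so this may not belong to Pirb alone. In bulk RNA, fewer cells of a type and less RNA per cell cannot be told apart.

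**Figure D4:**
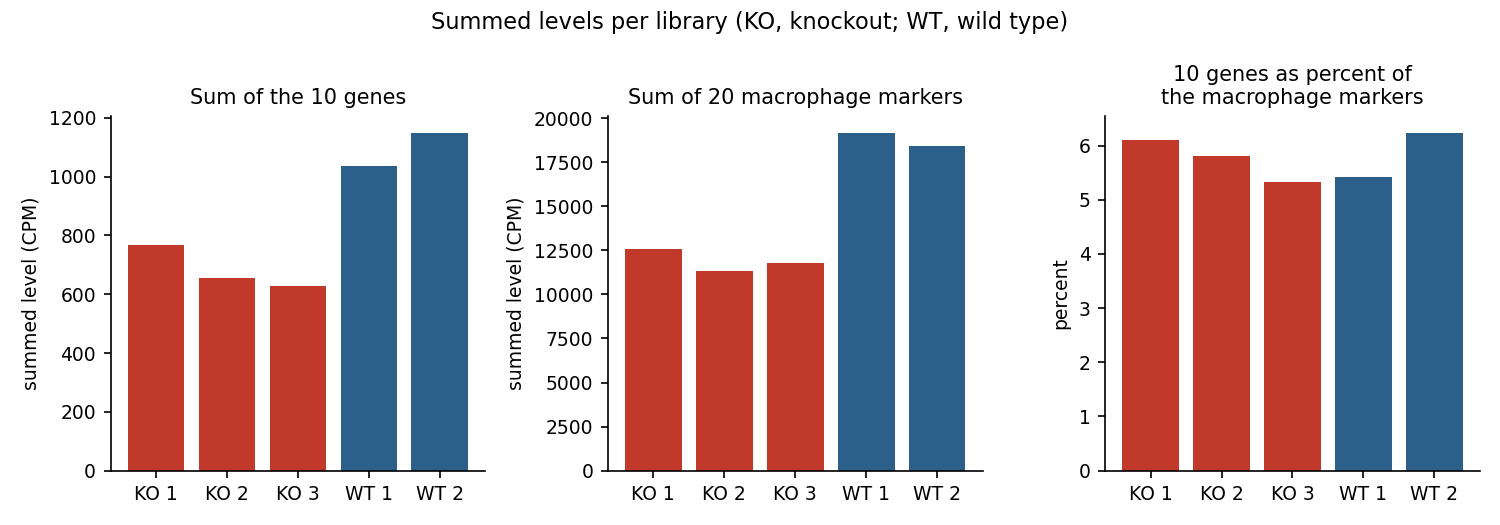
Summed CPM of the 10 genes (left), of 20 macrophage markers (middle), and the first as a percent of the second (right) in each library, knockout in red and wild type in blue. Both sums were lower in all 3 knockout libraries, and the percent, 5.33 to 6.11 in knockout and 5.42 to 6.23 in wild type, overlapped.

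Markers of neutrophils, mast cells and lymphocytes were scarce. Of the neutrophil markers 5 of 12 were listed, summing to 76.1 ± 7.68 CPM (SD, n = 3) in the knockout libraries and 133 ± 22.2 CPM (n = 2) in the wild type libraries. The defining genes Mpo, Elane and Ly6g were not listed, and the 1 tested marker, Mmp8, the neutrophil collagenase, did not pass (-1.12, edgeR adjusted p = 0.145). None of the mast cell, T and NK cell or B cell markers had enough counts to test. Mast cell and basophil markers summed to 0 to 14.3 CPM in the knockout libraries and 14.1 to 21.3 CPM in the wild type libraries, and Fcer1a and Ms4a2, the other chains of the IgE receptor, were not listed. T and NK cell markers summed to 33.3 to 43.2 CPM in the knockout and 42.3 to 53.1 CPM in the wild type libraries, and B cell markers to 28.5 to 101 CPM in knockout and 42.3 to 53.1 CPM in wild type. For osteoclasts, 2 of the 7 listed markers (of 10) could be tested. Ctsk, the collagen-cutting protease, did not pass (-0.61, edgeR adjusted p = 0.225). Acp5, an acid phosphatase of osteoclasts and macrophages, fell (-1.35, edgeR adjusted p = 7.89e-05), but did not pass once wild type 1 was left out (-0.89), while the definers Calcr, Ocstamp and Dcstamp were not listed. The osteoclast markers summed to 224 ± 39.3 CPM (SD, n = 3) in the knockout libraries and 472 ± 36.4 CPM (n = 2) in the wild type libraries, without overlap. Atp6v0d2, a proton pump subunit of osteoclasts, named after its values were seen, was too low to test, with 1, 1 and 1 counts in knockout against 5 and 5 in wild type (ratio of sums 0.181, interval 0.032 to 0.702, counting error only). Of the dendritic cell markers 5 of 10 were listed, 4 tested and 1 lower, while Itgax and Flt3 were not listed. The lower one was Zbtb46, a transcription factor of classical dendritic cells (-0.70, edgeR adjusted p = 1.52e-07). Its expected counts were 203.81, 235.17 and 300.25 in knockout 1 to 3, against 420.5 and 302.63 in wild type 1 and 2. None was whole, so reads were shared with a gene that was not looked for. The other 3 tested did not pass: Xcr1, a chemokine receptor, was at 0.13 and Clec9a, a receptor for dead cells, at -0.39, both with overlapping groups, and Irf8, a transcription factor, at -1.12 (edgeR adjusted p = 0.177). Of the stromal markers 11 of 18 were tested, and 5 rose, 0 fell and 6 did not pass (median 1.01). They summed to 12385 ± 356 CPM (SD, n = 3) in the knockout libraries and 4817 ± 42.3 CPM (n = 2) in the wild type libraries, led by Col3a1, Col1a1 and Col1a2, which rose by 1.38, 1.63 and 1.51 on the log2 scale. Among the 6 that did not pass, Pdgfra (-0.34), Ly6a (-0.22), Pdgfrb (0.15) and Prrx1 (0.39), genes of mesenchymal cells given after their values were seen, had overlapping groups. Dcn (1.01, edgeR adjusted p = 0.0783) and Vcam1 (0.82, edgeR adjusted p = 0.192), also among the 6, were higher in knockout without overlap. The part of these marker differences in the values of the 10 genes was not tested.

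Among other receptors that signal through ITAM adaptors, 27 of 35 were listed and 5 tested, of which 2 fell, 0 rose and 3 did not pass. Clec4d and Clec4e encode the mycobacterial glycolipid receptors MCL and Mincle, which use Fcer1g. Clec4d had 43, 47 and 38 counts in knockout 1 to 3, against 83 and 85 in wild type 1 and 2, a log2 fold change of -1.12 (SE 0.21; edgeR adjusted p = 2.71e-06). The groups lay far apart, and this call held in all 16 alternatives. Clec4e had 14, 20 and 22 counts in knockout against 37 and 28 in wild type, a log2 fold change of -0.94 (edgeR adjusted p = 0.0219), and did not pass once knockout 1 (-0.80), wild type 1 (-0.84) or wild type 2 (-1.05) was left out, or with DESeq2 (-0.95). Cd247, the ITAM-bearing ζ chain of T and NK cell receptors, named after its values were seen, was at -0.48 (edgeR adjusted p = 0.0526). Its mean was 315 CPM in knockout and 439 CPM in wild type. The T and NK cell markers summed to means of only 39 and 47.7 CPM, and Cd3e, Trac and Zap70 were not listed. Which cells its reads came from was not tested.

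The remaining Fc receptors and inhibitory receptors gave no call. Of other Fc receptors 7 of 12 were listed and 2 tested: Fcrls, a receptor-like scavenger of myeloid cells, was at -0.67 (edgeR adjusted p = 0.0971) and Fcgrt, the neonatal receptor that recycles IgG, at 0.31 (edgeR adjusted p = 0.701). In edgeR 1 of these 2 had an unadjusted p under 0.05. Of 21 ITIM-bearing inhibitory receptors 18 were listed and 9 tested, and 0 passed (1 at an unadjusted p under 0.05 in edgeR). Their median log2 fold change was -0.45. Sirpa, the receptor for CD47, was at -0.48 (edgeR adjusted p = 0.0679) and Cd300a, a lipid-binding receptor, at -0.90 (edgeR adjusted p = 0.197). Neither of these lists gained a call with DESeq2, voom or limma on FPKM.

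The kinases and signalling proteins around Syk were mostly at low counts. Of the Src family 5 of 8 were listed and 2 tested. Lyn, which phosphorylates both ITAMs and ITIMs, was at -0.30 (edgeR adjusted p = 0.621). In edgeR 0 of the list passed and 1 had an unadjusted p under 0.05, and 0 passed with DESeq2, voom or limma on FPKM. Downstream of Syk, 37 of 38 genes were listed and 22 tested. Of these 2 fell, 0 rose and 20 did not pass, with a median of -0.04. Over all tested genes, 8.14% passed as lower and the median was 0.01, so this list lay near the whole table. Fyb, an adaptor that links receptors to integrins, had 44, 33 and 47 counts in knockout 1 to 3, against 77 and 65 in wild type 1 and 2 (-0.92, SE 0.22, edgeR adjusted p = 0.000504). Prkcd, the kinase PKCδ that SYK uses to activate CARD9, had 11, 16 and 11 counts in knockout against 19 and 29 in wild type (-1.06, edgeR adjusted p = 0.0268). Fyb did not pass with limma on log2(FPKM + 1) (-0.95, adjusted p = 0.0543). Prkcd did not pass once knockout 1 (adjusted p = 0.0727), knockout 3 (-0.90) or wild type 2 (-0.64) was omitted from the edgeR fit, or with DESeq2 (-1.08).

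Of 18 negative regulators, 17 were listed and 10 tested, and 2 fell with 8 not passing (median -0.43). Ptprj, the receptor phosphatase CD148, was at -1.15 (edgeR adjusted p = 0.0125), which did not pass once knockout 3 (-0.96) or wild type 2 (-0.52) was omitted. Dok1, an adaptor that restrains Ras, had 2, 8 and 4 counts in knockout against 12 and 17 in wild type (-1.76, edgeR adjusted p = 0.0146). It reached the minimum count of 10 in the wild type libraries alone, so it could be tested only because it was higher there, and it did not pass when either wild type library was omitted (-2.08 and -1.40). With DESeq2 and with limma on FPKM, 0 of this list were called lower. Dok1 also did not pass with voom (-1.84, adjusted p = 0.0933). Ptpn6 and Inpp5d, the phosphatases SHP-1 and SHIP1 that ITIMs recruit, were named after their values were seen. They were at -0.20 (edgeR adjusted p = 0.78) and -0.39 (edgeR adjusted p = 0.595) and did not pass.

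Over the 5 libraries, the genes nearest in pattern to Tyrobp were Ccl6, a chemokine of myeloid cells, Wdr92 and Phf3, with a root mean square difference of centred log2 CPM of 0.07, 0.09 and 0.09. Those nearest to Fcer1g were Gatc, Zfp207 and Rasgrp4, at 0.12, 0.17 and 0.19. They were taken from 1382 tested genes with a mean of at least 100 CPM, and with 5 libraries such closeness is a description only.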

How the data were processed

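Total RNA of 3 Bmal1-knockout and 2 wild type libraries was sequenced with standard Illumina protocols, per the labels. For every library the authors deposited gene-wise values: the expected count, the FPKM and the gene length, per the file headers. Of tools, HISAT2, StringTie, Bowtie2 and RSEM appear per the submitters' processing notes, with mm10 as build and no roles or versions. The use of strand was not stated there. Each library lists 10785 to 11493 genes. Among listed expected counts, 93.8% to 94.2% were whole within 0.005.

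Expected counts were rounded and compared with edgeR 4.0.16 in R 4.3.3: filterByExpr kept genes by a minimum count of 10 and a minimum total of 15, libraries were scaled by TMM, and a robust quasi-likelihood model of genotype was tested, with p-values adjusted by Benjamini-Hochberg over all tested genes (threshold 0.05). SE is the log2 fold change over the square root of F. The fit was tested on simulated data. CPM uses rounded counts; FPKM is as deposited by the authors. DESeq2 1.42.0 and limma 3.58.1 (voom, and log2(FPKM + 1) or log2(FPKM + 0.1)) served for alternatives. Replicates within a group differed by more than sampling noise (chi-square per degree of freedom 1.34 to 1.52), and none was counted as a repeat of another. Such a spread may still be technical, so it does not show that they came from separate cultures. Exact Poisson intervals (95%) and the limit of 3 counts for a 0 cover counting error only.

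The 10 genes and all lists were chosen with earlier results of these data known. Other genes were named by rank: in each list at most 3 called genes per direction, or 2 of lowest p if none was called, the 2 highest markers by CPM where tested, the 3 nearest in pattern to Fcer1g and to Tyrobp, and Arntl. Genes outside this rule are said to be, and 1 gene the rule names is not reported here. Coordinates and promoter windows are from RefSeq (GRCm38.p6), and exon overlaps from GENCODE M21.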

Additional observations from a re-analysis of the deposited data

How the results depend on the processing

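The 8 tested genes of the set kept a log2 fold change of 0.00 or below in all 16 alternatives. Of them 2 were called lower with RLE, upper quartile or no scaling, voom, limma on FPKM and unrounded counts (added after seeing the data; these counts by number, with Tyrobp in place of Syk for limma on FPKM). The count was 1 with no filter on low counts and with a minimum count of 5, 0 with DESeq2, 0 with the replicate block, and 1 to 2 with 1 library left out in turn. The count of higher genes was 0 throughout. Over the whole table, higher and lower genes numbered 149 and 131 with DESeq2, 171 and 171 with limma on log2(FPKM + 1), 157 and 157 on log2(FPKM + 0.1), and 144 to 323 and 146 to 287 with 1 library left out. The cause was not tested, beside the fewer libraries when 1 is left out.

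With the replicate number as a block, 229 genes were higher and 212 lower, and Pirb (-1.22, adjusted p = 0.0649) and Syk (-0.78, adjusted p = 0.171) did not pass in edgeR; knockout 3 has no wild type partner and adds nothing there. Deviations of same-numbered libraries from their group means correlated at -0.007 and 0.026. With 2 wild type libraries, their deviations mirror each other, so these values cannot exclude a pairing, which the labels do not state. Of 16 other named genes past the test, 8 passed in every alternative that gave a value.

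In counts, the ratio of activating to inhibitory receptors averaged 1.46 in knockout and 2.12 in wild type, and without Fcgr4, an alternative added after seeing the data, 1.1 in knockout and 1.46 in wild type in FPKM. Without Lyz2 among the macrophage markers, the 10 genes came to 13.4% of them in knockout and 13.6% in wild type. Fcgr4 had an edgeR adjusted p of 0.525 with no filter (log2 fold change -1.24) and Clec7a of 0.963. Depth limits each of the 10 genes to at most 40 counts per library.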
